A study of Homo sapiens with 6 samples.

Results

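L1CAM (L1), its sheddases ADAM10 and ADAM17, the ezrin, radixin and moesin (ERM) linkers EZR, RDX and MSN, the ankyrin linker ANK3 and the adhesion molecules ALCAM and TENM2 were taken by gene symbol from a table of counts per gene. All 9 genes were measured, out of 19469 genes in the table, and each of the 9 passed the filter on low counts. The study sorted the human pancreatic cancer line L3.6pl by L1CAM at the cell surface and sequenced mRNA from the L1high cells (L1CAM_POSITIVE in the labels, 3 libraries) and the L1low cells (L1CAM_NEGATIVE, 3 libraries), to find how the transcriptomes of the populations differ. L3.6pl came from a lymph node metastasis of an adenosquamous carcinoma, although the cell line field of the labels reads L6.6pl. Both groups are wild-type, untreated cells of 1 line grown in DMEM with serum, so the comparison describes that line alone. The libraries held 16334610 to 21064685 counts each. Levels are given in CPM, which are counts relative to the library total after scaling by the trimmed mean of M values (TMM).

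L1CAM is a transmembrane cell adhesion molecule of the immunoglobulin superfamily, first known from growing axons and also made by carcinoma cells. Its extracellular part binds other L1 molecules and integrins, and it can be cut off close to the membrane by ADAM10 and ADAM17, after which the intramembrane protease gamma-secretase can release the tail. The short cytoplasmic tail binds ankyrins, which tie it to the spectrin skeleton, ERM proteins, which tie it to actin filaments, and the clathrin adaptor AP2, which brings it into endocytic vesicles.

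The L1CAM gene (ENSG00000198910, hg38 chrX:153861514-153886173, minus strand) holds a pair of short exons that are left out of the non-neuronal form of the protein. They are shown because a count per gene cannot separate the forms with and without them, the longer of which is the classical neuronal L1. The shorter exon adds the residues beside the tyrosine that AP2 binds. Each line runs 5′ to 3′ on the L1CAM strand, with the exon in capitals and 20 bases of intron on either side.
L1CAM exon of 15 bases, chrX:153873208-153873262: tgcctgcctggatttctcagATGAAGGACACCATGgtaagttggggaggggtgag
L1CAM exon of 12 bases, chrX:153863348-153863399: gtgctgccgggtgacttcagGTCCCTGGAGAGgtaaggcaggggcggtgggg
The 15-base exon is in 4 of 10 protein-coding L1CAM transcripts of GENCODE 44 and the 12-base exon in 1 of 10. Gene-level counts hold no value for either exon, so the L1CAM values that follow are sums over all forms.

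The ERM genes are close relatives, and each has intronless copies elsewhere in the genome, which matters for counting. Over aligned coding bases, EZR and MSN were 74.7% identical, MSN and RDX 72.0%, and EZR and RDX 70.7%. The longest identical runs are printed in full, because a stretch of coding sequence longer than such a run holds a base that separates the genes. Whether reads that span neighbouring exons were placed in the gene or in its intronless copy was not examined.
EZR and MSN, 32 bases: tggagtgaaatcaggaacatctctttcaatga
MSN and RDX, 20 bases: tttgaccaggtggtgaaaac
EZR and RDX, 19 bases: tggaatacctgaagattgc
MSN and MSNP1, 113 bases: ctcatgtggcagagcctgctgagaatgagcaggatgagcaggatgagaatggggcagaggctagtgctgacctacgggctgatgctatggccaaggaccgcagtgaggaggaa
MSNP1 (chr5:25909503-25911234) is a processed pseudogene, and its run with the MSN coding sequence, at positions 1409 to 1521, is far longer than any run between the 3 ERM genes. The longest run of RDX with RDXP1 was 115 bases and with RDXP3 84 bases, and that of EZR with EZRP1 was 59 bases. No capitals are used in these runs, since every base of each is shared.

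Among the 9 genes, L1CAM was lower and TENM2 higher in L1low cells, and the other 7 did not pass the test (edgeR quasi-likelihood test, Benjamini-Hochberg adjusted p under 0.05 over 19467 genes). The same test called 7.95% of all genes, 4.58% higher and 3.37% lower. Of the 8 genes other than the sorting marker, 1 was called, or 12.5%. The 3 libraries of one group lay wholly above or below those of the other for 5 of the 9 genes, namely L1CAM, TENM2, EZR, ANK3 and ALCAM, as they did for 28.8% of all genes. For the 7 genes without a call, the 95% intervals of the fold between L1low and L1high cells ran from 0.773 at the lowest to 1.25 at the highest.

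**Figure D1:**
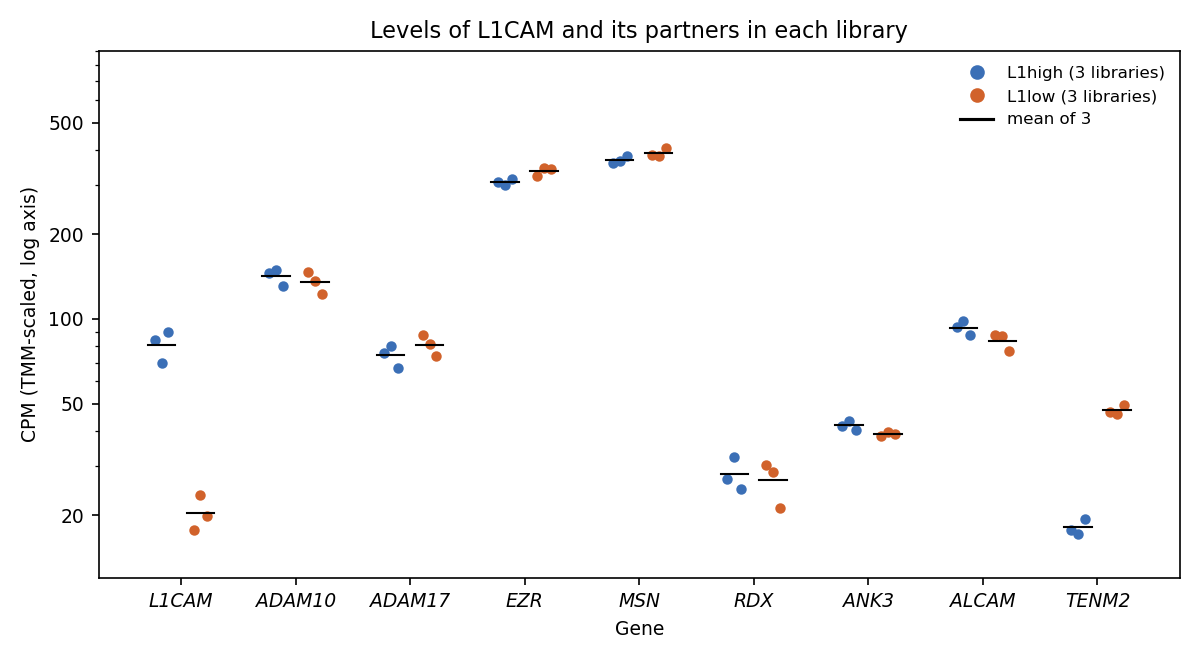
Level of each of the 9 genes in each library, in CPM on a log axis, with L1high libraries in blue, L1low libraries in orange and the mean of 3 as a line. L1CAM drops from 81.1 to 20.5 and TENM2 climbs from 18.1 to 47.3, while the groups of the other 7 genes lie close together.

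L1CAM measured 84.0, 69.8 and 89.5 CPM in L1high libraries 1 to 3 and 17.7, 23.7 and 19.99 CPM in L1low libraries 1 to 3. Every L1low library lay below every L1high library, and L1low cells kept 25.2% of the L1high level. The log2 fold change of L1CAM was -1.99 ± 0.12 (SE, n = 3 per group, adjusted p = 4.69e-06), with a 95% interval from -2.25 to -1.72. Since L1CAM protein set the gate of the sort, this difference checks the labels and is not a result. In these bulk libraries fewer L1CAM-expressing cells and less L1CAM RNA per cell cannot be told apart.

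The gene ENSG00000284987 (chrX:153872221-153909223) overlaps L1CAM on the same strand and shares 439 of its 593 exon bases, or 74.0%, with L1CAM exons. It was counted at 4.53, 3.12 and 3.59 CPM in L1high and at 0.991, 1.23 and 0.904 CPM in L1low libraries, 4.75% of the L1CAM counts. Its log2 fold change was -1.84 ± 0.24 (SE, adjusted p = 0.000666). How reads from the shared exons were counted is not given in the sources used here, so its call cannot be taken as separate from that of L1CAM.

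The neighbours of L1CAM on the X chromosome were read in the same fit. Within 200 kb of L1CAM, 17 other genes were tested, of which 1 was called higher and 1, the overlapping ENSG00000284987, was called lower. Over all genes, 4.58% were called higher and 3.37% lower. The 16 that do not overlap L1CAM had log2 fold changes from -0.21 to 0.45, with a median of 0.01. SLC6A8, which encodes the creatine transporter, was the gene called higher, with a log2 fold change of 0.43 (adjusted p = 0.0015). Within 500 kb, 25 genes were tested and no further gene was called.

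ADAM10 (ENSG00000137845, chr15:58588809-58749791), the main constitutive sheddase of L1CAM, measured 145.7, 149.9 and 130.7 CPM in L1high and 146.6, 136.7 and 122.3 CPM in L1low libraries. The groups overlapped, and library 3 was the lowest of each. Its log2 fold change was -0.07 ± 0.083 (SE, adjusted p = 0.648), with a 95% interval from -0.25 to 0.11, and it was 0.0056 without L1low library 3, so no direction can be given.

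ADAM17 (ENSG00000151694, chr2:9488486-9556732), the sheddase that also releases TNF and several EGFR ligands, measured 75.5, 80.1 and 67.0 CPM in L1high and 87.5, 81.6 and 73.6 CPM in L1low libraries. These groups overlapped as well. Its log2 fold change was 0.12 ± 0.089 (SE, adjusted p = 0.446; 95% interval -0.07 to 0.32). IAH1 overlaps ADAM17 on the opposite strand with 68.2% as many counts, and since the strand setting of the counting is not given in the sources used here, reads of the overlap cannot be assigned.

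The balance of the sheddases was taken within each library, where scaling between libraries plays no part. The log2 ratio of ADAM10 to ADAM17 counts was 0.948, 0.904 and 0.963 in L1high and 0.744, 0.744 and 0.731 in L1low libraries. All 3 L1low ratios lay below all 3 L1high ratios. The means were 0.938 ± 0.031 and 0.740 ± 0.0073 (SD, n = 3 each), a difference of -0.20 on the log2 scale. The two-sided exact permutation test gave p = 0.1, the smallest value that 3 against 3 libraries allow, and 0.4 after adjustment over the 4 ratios computed, so the difference did not pass the threshold.

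A list of 17 sheddase, related protease and gamma-secretase subunit genes, ADAM10 and ADAM17 included, was measured in full. Whether each listed protease acts on L1CAM in these cells was not tested. By edgeR 0 of the 17 were called higher, 3 lower and 14 not at all, so 17.6% were called against 7.95% of all genes. At an unadjusted p under 0.05 edgeR had 2 higher and 4 lower, and DESeq2 called 0 higher and 3 lower. Their median log2 fold change was 0.04 against -0.0087 over all genes. The 3 that fell were ADAM19 (-0.76 ± 0.15, adjusted p = 0.0111), ADAM8 (-0.61 ± 0.14, adjusted p = 0.0218) and BACE2 (-0.35 ± 0.065, adjusted p = 0.00706), a relative of beta-secretase. BACE2 was measured at 126.4 ± 4.41 CPM in L1high and 99.2 ± 2.86 CPM in L1low cells (SD, n = 3), and it kept its call in all 13 alternative fits. ADAM19 lost its call without L1high library 1 (adjusted p = 0.0537) or L1low library 2 (0.0557), and ADAM8 lost it without any of L1high libraries 1 and 3 and L1low libraries 2 and 3 (at most 0.106). The gamma-secretase subunit genes APH1B (0.38 ± 0.15, adjusted p = 0.151) and NCSTN (0.05 ± 0.070, adjusted p = 0.738) were not called.

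Proteins that mature, carry or block ADAM10 and ADAM17 were also read, with 13 of 14 measured, 1 called higher, 1 lower and 11 not called (median 0.05). The called share was 15.4%, against 7.95% of all genes. TIMP3, the tissue inhibitor that blocks ADAM17 and ADAM10, measured 1.37 ± 0.277 CPM in L1high and 2.78 ± 0.477 CPM in L1low cells, a log2 fold change of 1.01 ± 0.24 (adjusted p = 0.0261). TIMP1, which blocks ADAM10, measured 185.7 ± 8.55 and 151.7 ± 10.2 CPM, a log2 fold change of -0.29 ± 0.071 (adjusted p = 0.0286). Neither call was firm. TIMP3 lost its call without any 1 of 5 libraries, all but L1low library 3 (at most 0.110), and TIMP1 lost it without L1high libraries 1 or 3 or L1low libraries 1 or 2 (at most 0.143). FURIN, which removes the inhibitory prodomain of the sheddases, had 0.04 ± 0.093, and RHBDF2, the partner that brings ADAM17 to the surface, had -0.0068 ± 0.099 (SE).

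EZR (ENSG00000092820, chr6:158765741-158819368), the ERM protein of epithelial cells, measured 308.2, 299.0 and 315.6 CPM in L1high and 323.8, 344.2 and 343.0 CPM in L1low libraries. The groups did not overlap, although the gap between them was small. The log2 fold change was 0.13 ± 0.060 (SE, adjusted p = 0.216), and the 95% interval reached from just under 0 to 0.26. EZR-AS1 overlaps the gene on the opposite strand with 2.62% as many counts and was not called either.

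MSN (ENSG00000147065, chrX:65588377-65741931) encodes moesin and was measured at 358.0, 365.5 and 380.5 CPM in L1high and 383.0, 379.6 and 405.9 CPM in L1low libraries. The highest L1high library lay above the lowest L1low library, so the groups overlapped. Its log2 fold change was 0.08 ± 0.061 (SE, adjusted p = 0.46; 95% interval -0.05 to 0.21). MSNP1, the copy with the 113-base run shown above, was counted at 69.6, 57.5 and 73.6 CPM in L1high and at 76.7, 82.0 and 76.3 CPM in L1low libraries, 19.1% of the MSN counts. MSNP1 did not pass the test either (0.23 ± 0.092, adjusted p = 0.164), and reads from runs shared with it cannot be assigned to MSN.

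RDX (ENSG00000137710, chr11:109864295-110296712) encodes radixin and was the least expressed ERM gene, at 27.0, 32.2 and 24.8 CPM in L1high and 30.2, 28.6 and 21.3 CPM in L1low libraries. The groups overlapped, with library 3 again lowest in each. Its log2 fold change was -0.07 ± 0.138 (SE, adjusted p = 0.81), and its 95% interval, -0.37 to 0.23, was the widest of the 9 genes. The sign turned without L1high library 2 (0.044) and without L1low library 3 (0.080). The pseudogenes RDXP3 and RDXP1 held 15.9% and 4.94% as many counts as RDX, so its value is uncertain for that reason too. ZC3H12C and a pseudogene, ENSG00000255210, overlap RDX on the opposite strand with 10.6% and 12.8% as many counts, and neither was called.

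Per base of exon, the ERM makeup was that of EZR over MSN over RDX in every library. By counts alone MSN lay above EZR in every library, with log2 ratios of EZR to MSN from -0.29 to -0.14. EZR made up 72.5% ± 0.669 of the summed ERM level in L1high and 73.3% ± 0.724 in L1low cells (SD, n = 3). MSN made up 25.0% ± 0.452 and 24.4% ± 0.772, and RDX 2.55% ± 0.396 and 2.25% ± 0.443. The shares depend on the length used: per base of the longest transcript EZR made up 57.6%, MSN 38.9% and RDX 3.43% over the 6 libraries, in the same order. The log2 ratios differed between L1low and L1high cells by 0.05 for EZR to MSN, 0.21 for EZR to RDX and 0.16 for MSN to RDX. The exact permutation tests gave p = 0.3, 0.5 and 0.7 (two-sided, n = 3 per group, adjusted 0.6, 0.667 and 0.7). The groups overlapped for each ratio, and that of MSN to RDX was -0.028 without L1low library 3.

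Among 15 regulators and membrane partners of ERM proteins, 12 were measured. Of these 12, 1 was called higher (8.33%, against 7.95% of all genes) and 11 were not called, with a median of 0.05. DESeq2 called 3 of them, and edgeR called 2 with upper-quartile scaling, without L1high library 3 or without L1low library 3. PDPN encodes podoplanin, a membrane protein that binds ERM proteins at its tail. It measured 6.71 ± 0.257 CPM in L1high and 15.1 ± 1.84 CPM in L1low cells. PDPN rose by 1.17 ± 0.13 on the log2 scale (adjusted p = 0.000166). It kept its call in all 13 alternative fits. The ERM kinases STK10 (0.32 ± 0.090, adjusted p = 0.0537) and ROCK2 (0.27 ± 0.076, adjusted p = 0.0515) lay just outside the threshold. CD44, the hyaluronan receptor that ERM proteins bind, had 480 ± 23.8 and 441 ± 18.7 CPM and was not called (-0.12 ± 0.064, adjusted p = 0.286).

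ANK3 (ENSG00000151150, chr10:60026298-60733490) encodes ankyrin-G, which holds L1-type molecules at the spectrin skeleton. It measured 41.6, 43.5 and 40.3 CPM in L1high and 38.3, 39.6 and 39.0 CPM in L1low libraries. The L1low libraries lay just below the L1high libraries. The log2 fold change was -0.10 ± 0.077 (SE, adjusted p = 0.472; 95% interval -0.27 to 0.07). ENSG00000232682, a lncRNA on the opposite strand with 17.8% as many counts, was not called.

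Of 17 ankyrin and spectrin skeleton genes, ANK3 included, 14 were measured, 3 were called higher and 11 were not called (median 0.15). The called share was 21.4%, against 7.95% of all genes. EPB41L1, a band 4.1 protein that links spectrin and actin to membrane proteins, went from 19.4 ± 1.11 to 36.9 ± 1.95 CPM, a rise of 0.92 ± 0.091 on the log2 scale (adjusted p = 8.3e-05), and kept its call in all 13 alternative fits. ADD1 rose by 0.29 ± 0.066 (adjusted p = 0.0193) and EPB41L2 by 0.28 ± 0.076 (adjusted p = 0.0432). ADD1 lost its call without L1high library 1 or L1low library 2 (at most 0.114), and EPB41L2 without any 1 of the 6 libraries (at most 0.197). The spectrins themselves were not called, with SPTAN1 at 0.11 ± 0.070 and SPTBN1 at 0.02 ± 0.059 (SE).

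The endocytic route of L1 gave 10 of 11 genes measured, 1 called higher and 9 not called (median 0.04). The called share was 10.0%, against 7.95% of all genes. AP2B1, the beta subunit of AP2, went from 169.3 ± 10.1 to 216.9 ± 0.957 CPM, a log2 fold change of 0.36 ± 0.065 (adjusted p = 0.0062). Without L1high library 1 its adjusted p was 0.0612. AP2M1, the subunit that reads tyrosine signals such as that beside the 12-base exon, was not called (0.11 ± 0.064, adjusted p = 0.36), nor was the clathrin heavy chain gene CLTC (-0.11 ± 0.068, adjusted p = 0.356).

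ALCAM (ENSG00000170017, chr3:105366909-105576900), an immunoglobulin-type adhesion molecule that is itself shed by ADAM17, measured 93.9, 98.1 and 87.7 CPM in L1high and 87.4, 86.7 and 76.6 CPM in L1low libraries. The highest L1low library lay just below the lowest L1high library, and library 3 was the lowest of each group. The log2 fold change was -0.16 ± 0.078 (SE, adjusted p = 0.248), with an interval for the fold from 0.796 to 1.01. It was the largest change, in either direction, of the 7 genes without a call.

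TENM2 (ENSG00000145934, chr5:166979029-168264157) encodes a teneurin, a large transmembrane protein that binds the latrophilin receptors ADGRL1 to ADGRL3 on a facing cell. TENM2 measured 17.8, 17.1 and 19.4 CPM in L1high and 46.8, 45.7 and 49.3 CPM in L1low libraries. The groups were far apart, and the spread within each was small. TENM2 rose by 1.39 ± 0.088 on the log2 scale (SE, n = 3 per group, adjusted p = 4.69e-06), 2.61-fold with a 95% interval from 2.28 to 2.99. In the 13 alternative fits its log2 fold change lay between 1.35 and 1.44 and always passed the threshold. By size it ranked 39 among the 891 genes called higher.

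Among 10 teneurins and their receptors, TENM2 included, 7 were measured, and TENM2 was the 1 called (2 were called without L1high library 2). The called share was 14.3%, against 7.95% of all genes. Values above 0 were seen for 6 of the 7, with a median of 0.31. TENM3 measured 12.1 ± 0.300 and 15.02 ± 0.569 CPM (0.31 ± 0.10, adjusted p = 0.0858). The latrophilins ADGRL1 (-0.06 ± 0.087), ADGRL2 (0.22 ± 0.081) and ADGRL3 (0.39 ± 0.15) did not pass the test, nor did their other ligand FLRT3 (0.35 ± 0.14).

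**Figure D2:**
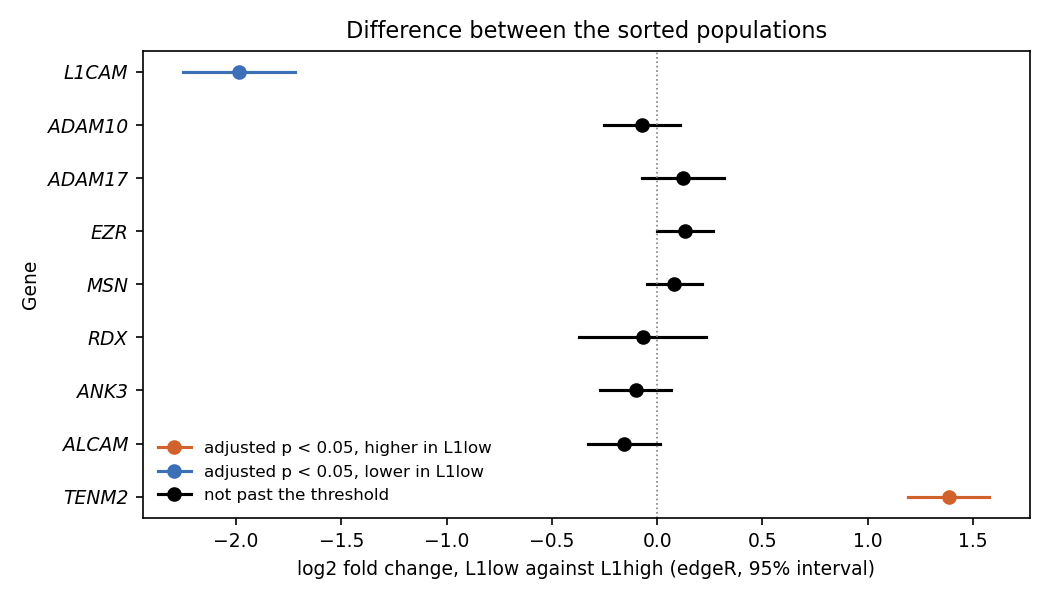
Log2 fold change of the 9 genes in L1low against L1high cells with 95% intervals from the edgeR fit (n = 3 libraries per group). L1CAM (-1.99) and TENM2 (1.39) stand clear of 0, and the intervals of the other 7 genes hold 0.

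Of 14 surface partners and relatives of L1CAM, 11 were measured, 5 were called higher and 6 were not called. The called share was 45.5%, against 7.95% of all genes, in a list chosen with earlier results known. The median was 0.19 and all 11 values lay above 0. ITGB3, which with ITGAV forms an integrin that binds L1, went from 1.63 ± 0.0278 to 7.54 ± 0.224 CPM and rose by 2.20 ± 0.16 on the log2 scale (adjusted p = 7.38e-06). NRP1, a co-receptor of L1 in semaphorin signaling, rose by 0.67 ± 0.097 (adjusted p = 0.00138) and EGFR by 0.59 ± 0.063 (adjusted p = 0.000137), and all 3 kept their calls in the 13 alternative fits. ITGB1 rose by 0.36 ± 0.076 (adjusted p = 0.0127) and CD24, a glycoprotein that binds L1, by 0.53 ± 0.14 (adjusted p = 0.0473). ITGB1 lost its call without L1high library 1 or L1low library 2 (at most 0.0894), and CD24 without L1high libraries 1 or 3 or L1low libraries 1 or 2 (at most 0.175) or with scaling by library totals only (0.0554). The L1 relatives NRCAM (0.04 ± 0.29) and NFASC (0.06 ± 0.13) and the integrin chain ITGAV (0.03 ± 0.10) were not called.

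Reported regulators of L1CAM transcription were read as a further list, with 4 of 5 measured and 0 called by edgeR at an adjusted p under 0.05 (3 at an unadjusted p under 0.05). The called share was 0%, against 7.95% of all genes, and a list of 4 is too short to tell these shares apart. SNAI2 had 0.27 ± 0.097 (adjusted p = 0.118), TCF7L2 0.41 ± 0.13 (0.0738), REST 0.17 ± 0.13 (0.49) and CTNNB1 -0.13 ± 0.059 (0.203). DESeq2 called 1 of them, TCF7L2, and edgeR called 1 of the 4 without L1high library 2 or without L1low library 3. With the replicate number as a block edgeR called 2 of the 4.

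Over the 9 lists 97 of 119 genes were measured, of which 14 were called higher and 5 lower, or 19.6% against the background of 7.95%. Their median log2 fold change was 0.09. The number of calls was 9 without L1high library 1 and 10 without L1low library 2, where the calls over all genes also dropped, to 674 and 627. The lists were chosen with earlier results known, and their share is not evidence for the pathway.

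Levels of different genes were compared per base of exon, in TPM, that is, counts per base over the union of each gene’s exons scaled to the same total in every library. EZR stood highest at 209.8, followed by MSN at 71.0, ALCAM at 26.4, ADAM10 at 18.6, ADAM17 at 10.4, RDX at 6.88 and ANK3 at 3.34 TPM, as means over the 6 libraries. L1CAM measured 23.9 ± 3.2 TPM in L1high cells (SD, n = 3), where its range overlapped that of ALCAM (27.8 ± 1.43) and lay above that of ADAM10 (19.0 ± 1.31). In L1low cells L1CAM measured 6.02 ± 0.886 TPM, and its range there overlapped that of RDX (6.74 ± 1.47) and lay below that of ADAM17 (10.9 ± 1.42). TENM2 measured 1.82 ± 0.128 TPM in L1high cells, below ANK3 (3.46 ± 0.112), and 4.75 ± 0.132 TPM in L1low cells, above ANK3 (3.23 ± 0.138). Over the longest transcript in place of the exon union, L1CAM again lay above ADAM10 and ADAM17 in L1high cells (28.3 against 22.8 and 20.2 TPM) and below both in L1low cells (7.14 against 21.8 and 22.1 TPM).

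The 5 genes whose profiles over the 6 libraries were closest to that of L1CAM, among 17101 genes, were ALPG, PRSS36, ENSG00000284987, ENSG00000224516 and MUC16. Likeness was the root mean square difference between log2 CPM profiles, each centred on its own mean, so the group difference itself largely sets it and no test applies. ALPG, an alkaline phosphatase gene, lay at 0.162 and went from 5.62 ± 0.381 to 1.505 ± 0.241 CPM. PRSS36, a serine protease gene, lay at 0.184 and went from 27.8 ± 5.06 to 8.03 ± 0.309 CPM. ENSG00000284987, at 0.191, shares exons with L1CAM as described, and ENSG00000224516, at 0.193, is a lncRNA that overlaps the alkaline phosphatase gene ALPP. MUC16, the mucin known as CA125, lay at 0.241 and went from 42.9 ± 4.41 to 14.6 ± 1.23 CPM. None of the other 8 genes was near, the closest being ALCAM at 0.934 and the farthest TENM2 at 1.69.

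Markers of other cell types and of handling were read beside these results. All 6 epithelial markers were measured, their summed level was 4232 to 4785 CPM in L1high and 4780 to 5130 CPM in L1low libraries, KRT19 rose by 0.63 and EPCAM fell by 0.30 on the log2 scale (EPCAM not without any 1 of 5 libraries, all but L1high library 3). Of the fibroblast markers 2 of 8 were measured, at 79.9 to 90.8 CPM in sum in L1high and 131 to 151 CPM in L1low libraries. Nearly all of that sum was LUM, called higher, with means of 82.9 CPM in L1high and 142.1 CPM in L1low cells. COL3A1 had means of 1.35 and 1.64 CPM and was not called. Of the leukocyte markers 2 of 6 were measured (19.7 to 24.0 and 15.6 to 18.3 CPM, ITGAX called lower), of the endothelial markers PECAM1 alone of 5 (11.3 to 11.9 and 13.2 to 14.7 CPM), and of the neural markers 3 of 8 (226 to 230 and 228 to 237 CPM, NEFL called lower and ENO2 higher, the latter not without any 1 of the 6 libraries). Of the markers measured, 33.3% of the epithelial, 50.0% of the fibroblast and 50.0% of the leukocyte ones were called. The called share was 0% for endothelial and 66.7% for neural markers, against 7.95% of all genes. Each of these marker lists was short. The 10 immediate early and heat shock genes linked to sorting summed to 7649 to 8264 CPM in L1high libraries. In L1low libraries they summed to 9596 to 10308 CPM. Of them 5 were called higher (ATF3, FOSB, IER2, EGR1 and FOS), or 50.0% against 7.95% of all genes, and 5 were not called. ATF3 and FOSB kept their calls in the 13 alternative fits. EGR1, FOS and IER2 lost theirs without L1high library 1 or L1low library 2, FOS also without L1high library 2 or L1low library 1, and IER2 also without L1high library 2 or L1low library 3. Whether these shifts have a part in the differences of TENM2, ITGB3 or PDPN was not tested.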

How the data were processed

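mRNA of 3 L1high and 3 L1low libraries was prepared with a stranded TruSeq kit and sequenced in pairs on a NextSeq. The authors aligned trimmed reads to GRCh38 (hg38) with BWA, which does not split reads over introns, and counted them per gene with featureCounts on Ensembl 94. The deposited values are these raw counts, and all 19469 genes exceed 1 CPM in at least 2 libraries. The strand and multiple-mapping settings of the counting are not given in the sources used here. DESeq2 is also named in the submitters' processing notes.

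Counts were fitted with edgeR 4.0.16 (TMM scaling, filterByExpr, quasi-likelihood test, Benjamini-Hochberg over all 19467 genes tested, calls at adjusted p under 0.05). Positive log2 fold changes are higher in L1low cells. SE is the fold change over the square root of F, and 95% intervals use the t distribution of the fit. Symbols, coordinates and exons came from GENCODE 44 (19344 genes matched), sequences from hg38. Ratios were tested by exact permutation (scipy 1.17.1). On simulated counts for this comparison 185 of 200 changed genes among 19469 were called, with 4 false calls. Each changed gene differed by 1 on the log2 scale, and all genes shared 1 common spread. Smaller changes, such as those of the genes without a call, were not simulated. No pair of libraries was a duplicate. The labels do not say that libraries came from separate cultures, so p-values measure the spread between these samples, which may be technical.

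The 9 genes and the lists were chosen with earlier results of these data known. Named from each list were the called genes with the 3 largest changes and any needed for a count of 5 or fewer. Genes without a call that are named beside them were picked for their role after values were seen. Near L1CAM, called or overlapping genes were named, and the 5 nearest profiles among genes with a mean log2 CPM of at least 1. Alternatives were RLE, upper-quartile and total scaling, no filter, at least 10 counts in every library, DESeq2 1.42.0, a replicate block, each library left out in turn, transcript length in place of exon union, and a prior count of 0.5 in place of 2.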

Additional observations from a re-analysis of the deposited data

How the results depend on the processing

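In all 13 alternative fits L1CAM (-2.10 to -1.89) and TENM2 (1.35 to 1.44) kept their calls and the other 7 genes stayed without one. Signs turned for ADAM10 without L1low library 3 (0.0056; -0.13 to 0.01 over the fits that leave out 1 library), for RDX without L1high library 2 (0.044) or L1low library 3 (0.080; range -0.17 to 0.080), and for the MSN to RDX ratio without L1low library 3 (-0.028; range -0.028 to 0.27). Leaving out 1 library gave 627 to 1473 calls over all genes (1548 with all 6), 393 to 859 higher and 234 to 614 lower, and 9 to 20 calls over the 9 lists (19 with all 6). The replicate block gave 2363 calls, 1143 of them lower, of which 1547 were also called without it. It changed no call among the 9 genes, but called 3 genes of the ERM regulator list (1 without it) and 2 regulators of L1CAM transcription (0 without it). The labels give both groups the numbers 1 to 3, and same-numbered libraries deviated together with r = 0.117, 0.0967 and 0.292. Libraries 1 and 3 of both groups and L1low library 2 correlated best with their own number. L1high library 2 correlated best with L1low library 1 (0.106), so the pairing is a hint from the data at most. No label ties a number to a day or culture and not every r was over 0.1, so the pairing was not used. With the longest transcript in place of the exon union, levels were 22.3 TPM for ADAM10, 21.2 for ADAM17, 188 for EZR, 127 for MSN, 11.2 for RDX, 4.25 for ANK3, 33.7 for ALCAM and 5.66 for TENM2, which puts ADAM17 above L1CAM (17.7) and TENM2 above ANK3 in the means over 6 libraries. DESeq2 gave TIMP3 no adjusted p. The cause of these shifts was not tested, except that lengths set the last. With 3 libraries per group, folds within the printed intervals could not be told from none, and forms of 1 gene were not counted apart.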

Other observations

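Immunoglobulin-type adhesion molecules outside the L1 family were read for comparison with L1CAM and ALCAM. Of 16 genes 9 were measured, 2 were called higher, 1 lower and 6 were not called, with a median log2 fold change of 0.11. The called share was 33.3%, against 7.95% of all genes, in a list chosen with earlier results known. BCAM, the laminin-binding Lutheran glycoprotein, was the most abundant of them and went from 762 ± 58.3 CPM in L1high to 1372 ± 48.4 CPM in L1low cells (SD, n = 3), a rise of 0.85 ± 0.068 on the log2 scale (edgeR, adjusted p = 1.62e-05). NECTIN4, a partner of NECTIN1 at epithelial junctions, went the other way, from 12.8 ± 0.617 to 6.80 ± 0.583 CPM, and fell by 0.91 ± 0.12 (adjusted p = 0.000769). Both kept their calls in all 13 alternative fits. NECTIN2 rose by 0.28 ± 0.078 (adjusted p = 0.0485), a call that was lost under 7 of the 13, among them each fit without L1high library 1 or 2 or L1low library 2 or 3 (at most 0.216). MCAM (0.29 ± 0.13, adjusted p = 0.205), NCAM2 (0.04 ± 0.24) and F11R (0.17 ± 0.064, adjusted p = 0.127) were not called.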
